A study of Oryza sativa with 18 samples.

Results

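Flag leaves of the watered rice hybrid Hanyou73 were compared with those of its watered parents, Hanhui3 and Huhan7B, and each gene was sorted by where the hybrid's level lay relative to the parents. The comparison was between 9 of the 18 libraries in the study, with each gene's spread estimated from all 18, and covered 22590 of the 38993 genes listed, those with at least 1 FPKM (fragments per kilobase of transcript scaled to sequencing depth, a level corrected for gene length) in at least 3 libraries. The 3 watered groups were Hanyou73, Hanhui3 and Huhan7B, each kept irrigated and each with 3 libraries. The other 9 libraries came from the same 3 genotypes after irrigation was withheld from early grain filling. All leaves were taken at grain filling, at one growth stage and at one time of day, from plants in the same field. Every library held the pooled flag leaves of several plants that shared a plot, so p-values measure how pools differ. The labels do not say whether the pools of a genotype came from separate plots. If they shared a plot, genotype and plot cannot be told apart, and the p-values do not cover differences between plots. The study asked which expression patterns of the hybrid depart from an additive mean of the parents.

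A first-generation hybrid carries a copy of each parent's genome, and a gene at the mean of the parental levels is called additive. A gene at the level of a single parent is described as dominant toward that parent, and a gene outside the parental range is called overdominant or transgressive. The flag leaf, the last leaf before the panicle, is the main source of sugar for the filling grain, so genes of photosynthesis, sugar metabolism and nitrogen reuse are prominent in its transcriptome.

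In the watered libraries the FPKM values summed to between 958893 and 991221 in Hanyou73, between 1052488 and 1108913 in Hanhui3, and between 1044202 and 1056201 in Huhan7B. More genes reached 1 FPKM in the hybrid, 20054 to 20089, than in Hanhui3, with 19122 to 19229, or in Huhan7B, with 19069 to 19116. Across genes, which are no independent replicates, Pearson's r was 0.868 to 0.905 between watered libraries of different genotypes and 0.982 to 0.989 within a genotype. The median-ratio size factor, which puts the median gene of each library at the same level, was 1.05 to 1.06 in Hanyou73, 0.872 to 0.907 in Hanhui3 and 1.02 in each Huhan7B library.

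Most expressed genes did not sit at the parental mean. On the log2(FPKM + 1) scale, 9876 genes were higher in Hanyou73 than the mid-parent (43.7% of genes tested) and 5314 were lower (23.5%), by limma with Benjamini-Hochberg adjustment at 0.05. Together they were 67.2% of genes tested. The parents themselves differed at 66.4% of genes, of which 5704 were higher in Hanhui3 and 9305 were higher in Huhan7B. The share of higher calls depended on scaling. With median-ratio scaling 8003 genes were above the mid-parent (35.4%) and 7191 were below it (31.8%), and 7449 genes were higher in Hanhui3 and 7026 in Huhan7B. The median gene lay 0.14 above the mid-parent in log2, or 0.02 with median-ratio scaling, and the differences given for single genes are best read against that shift.

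Genes were sorted by the calls of the hybrid against the mid-parent, of the hybrid against each parent and of the parents against each other. Above both parents lay 5971 genes (26.4%), called higher in Hanyou73 than in each parent, and below both lay 2819 genes (12.5%). Additive genes, with parents called apart and no call of the hybrid off the mid-parent, numbered 4096 (18.1%). Another 1701 genes (7.53%) were called off the mid-parent and away from Huhan7B but not against Hanhui3, and are described as like Hanhui3. The mirror class, like Huhan7B, held 2592 genes (11.5%). A further 1213 genes (5.37%) lay between the parents, called against each of them and off the mid-parent, 894 (3.96%) were off the mid-parent with parents that were not called apart, and 3304 (14.6%) had no call. Additive and parent-like classes rest partly on a missing call, which does not show that 2 levels were equal.

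**Figure D1:**
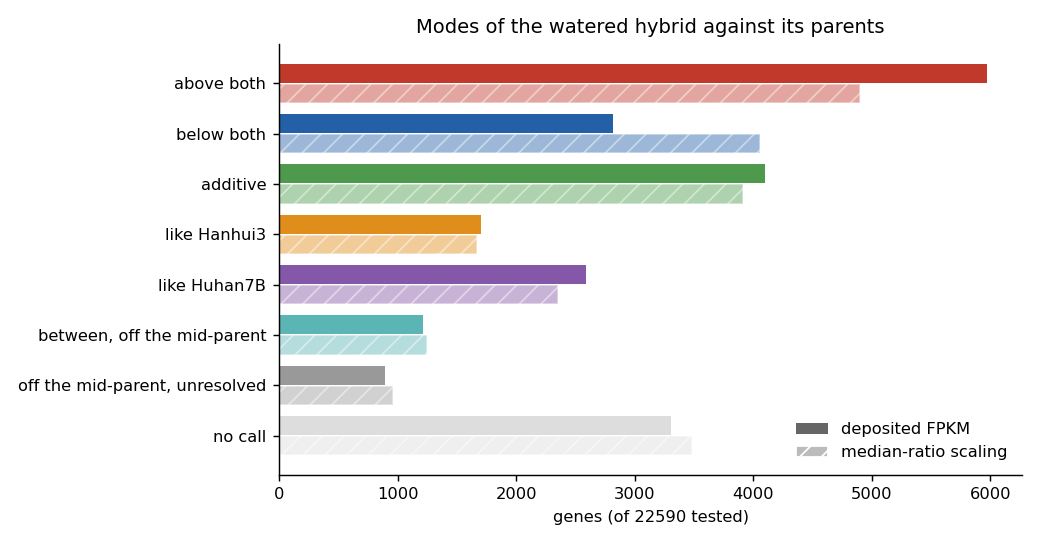
Number of genes in each class in watered leaves, from the deposited FPKM (solid bars) and after median-ratio scaling (hatched bars). The class above both parents held 5971 genes with deposited FPKM and 4902 after scaling, and the class below both held 2819 and 4056.

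Scaling moved genes between classes more than it moved most class sizes. Of the genes above both parents, 82.1% stayed there after median-ratio scaling, and of those below both 99.9% stayed. Only 56.4% of additive genes, 36.9% of genes like Hanhui3 and 64.1% of genes like Huhan7B kept their class. At least 2-fold from the nearer parent on the log2(FPKM + 1) scale were 1609 of the genes above both (7.12% of genes tested; 1373 after scaling) and 614 of the genes below both (2.72%; 733 after scaling), and 1373 and 613 of these were the same genes under both scalings.

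**Figure D2:**
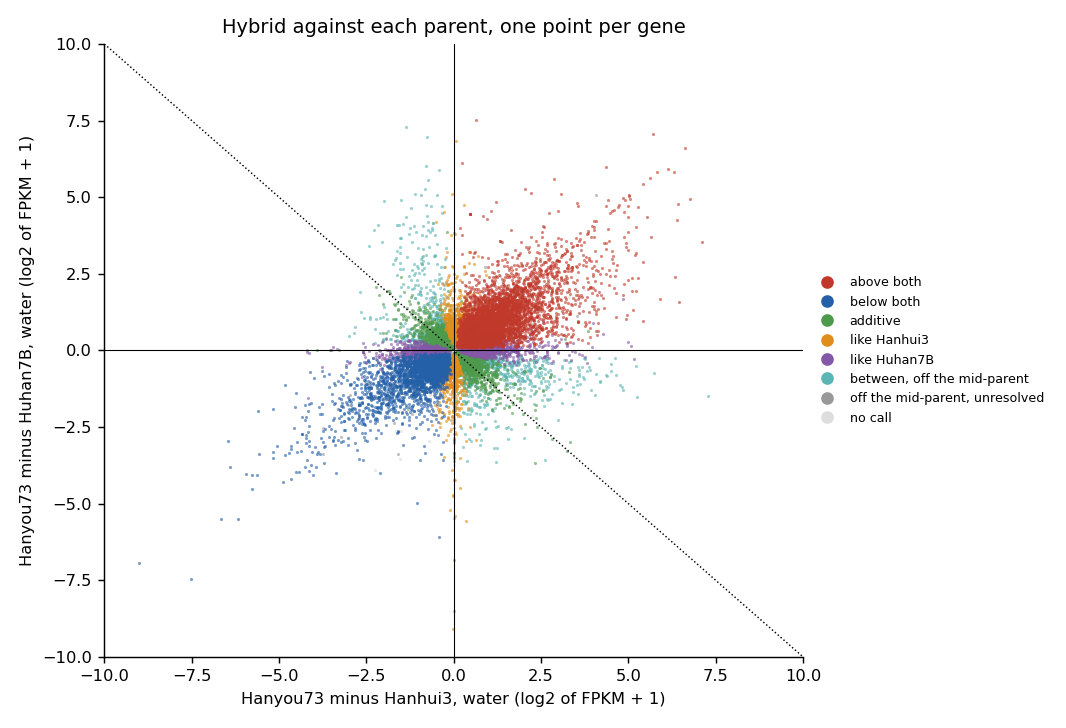
Each point is a gene, placed by the log2 difference of watered Hanyou73 from Hanhui3 (x axis) and from Huhan7B (y axis) and coloured by class. The dotted line marks the mid-parent; the 5971 genes above both parents lie in the upper right quadrant and the 2819 below both in the lower left, at up to 7.45 below the nearer parent.

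Among genes with a symbol or product name, those farthest above both parents included a pair of early light-inducible proteins, chloroplast proteins related to the light-harvesting antenna and known from leaves under light stress. Os07g0178800, the low-mass form, stood at 3751, 3468 and 3890 FPKM in the 3 Hanyou73 libraries, against 54.3, 53.9 and 48.2 FPKM in Hanhui3 and 62.9, 54.1 and 62.7 FPKM in Huhan7B. Every hybrid library was far above every parental library, 61.8-fold above Huhan7B in mean FPKM, and the log2 difference from the mid-parent was 6.03 ± 0.069 (SE; limma adjusted p = 8.28e-19). Os01g0246400, the high-mass form, stood at 1775, 1685 and 1809 FPKM in Hanyou73, against 21.6, 21.5 and 20.2 in Hanhui3 and 32.3, 28.2 and 30.7 in Huhan7B. The groups did not overlap here either, and the log2 difference from the mid-parent was 6.06 ± 0.081 (SE; limma adjusted p = 3.84e-18).

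OsCML21 (Os05g0312600), annotated as a calcium-binding calmodulin-like protein, stood at 186, 196 and 208 FPKM in Hanyou73, against 0.98, 0.53 and 1.01 in Hanhui3 and 5.44, 5.36 and 5.56 in Huhan7B. OsMT1b (Os03g0288000), a metallothionein, one of the small cysteine-rich proteins that bind metals, stood at 1082, 1008 and 1179 FPKM in Hanyou73, against 29.7, 32.3 and 34.0 in Hanhui3 and 34.5, 38.6 and 31.4 in Huhan7B. In both genes the hybrid's lowest library was more than an order of magnitude above the highest parental one. OsDjC45 (Os04g0675400), a chloroplast DnaJ co-chaperone, averaged 29.0 times the level of the nearer parent, with 1516, 1467 and 1468 FPKM in Hanyou73, against 54.8, 52.9 and 45.7 in Hanhui3 and 45.7, 47.6 and 45.6 in Huhan7B. Os01g0597800, a predicted scopoletin glucosyltransferase, was at 30.9, 30.2 and 34.5 FPKM in Hanyou73 and at 0.35 FPKM or less in all 6 parental libraries. Os04g0103800, annotated as subunit 3 of the WASH complex, was listed at 0 in all 6 parental libraries and at 29.4, 31.5 and 25.6 FPKM in Hanyou73, so no fold is given. OsPCL1 (Os01g0971800), a clock transcription factor, is described with the clock genes.

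The gene farthest below both parents was PsbR (Os07g0147500), which encodes the 10 kDa polypeptide of photosystem II at its oxygen-evolving side. It stood at 68.8, 74.0 and 75.2 FPKM in Hanyou73, against 11892, 14385 and 14814 FPKM in Hanhui3 and 12844, 12933 and 12838 FPKM in Huhan7B. It was among the most abundant transcripts of both parents, and the hybrid's mean was 177-fold below that of Huhan7B, with a log2 difference from the mid-parent of -7.49 ± 0.054 (SE; limma adjusted p = 1.52e-20). OsRcaII (Os11g0707000), Rubisco activase, which keeps the carbon-fixing enzyme in its active state, stood at 198, 199.99 and 187 FPKM in Hanyou73, against 11025, 10469 and 10872 in Hanhui3 and 3216, 3393 and 3226 in Huhan7B. No hybrid library came near a parental one, and the difference from the mid-parent was -4.92 ± 0.044 (SE; limma adjusted p = 5.18e-20).

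OsPorA (Os04g0678700), protochlorophyllide reductase A of the light-dependent step of chlorophyll synthesis, stood at 14.2, 13.3 and 12.8 FPKM in Hanyou73, against 837, 823 and 715 in Hanhui3 and 320, 332 and 334 in Huhan7B. Os12g0169600, a chloroplast fructose-bisphosphate aldolase, stood at 4.18, 4.23 and 5.75 FPKM in Hanyou73, against 360, 355 and 341 in Hanhui3 and 94.0, 89.8 and 94.2 in Huhan7B. For both genes Hanhui3 was the higher parent, and the hybrid lay well under the lower one, by 24.5-fold and 19.6-fold in mean FPKM. OsLOX1 (Os02g0194700), a chloroplast lipoxygenase, was at 3.11, 3.14 and 2.81 FPKM in Hanyou73, against 344, 283 and 248 in Hanhui3 and 183, 180 and 183 in Huhan7B. NFYC2 (Os03g0251350), a subunit of the CCAAT-binding factor NF-Y, averaged 16.8-fold below Huhan7B, at 14.9, 13.9 and 15.2 FPKM in Hanyou73, against 364, 337 and 306 in Hanhui3 and 248, 247 and 243 in Huhan7B. The rule also named Os12g0583300, an aspartic proteinase listed at 0.05 FPKM or less in all 3 hybrid libraries, and Os01g0198900, whose product is named lachrymatory-factor synthase, 20.9-fold below the nearer parent. All 16 of these named genes kept their class after median-ratio scaling.

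**Figure D3:**
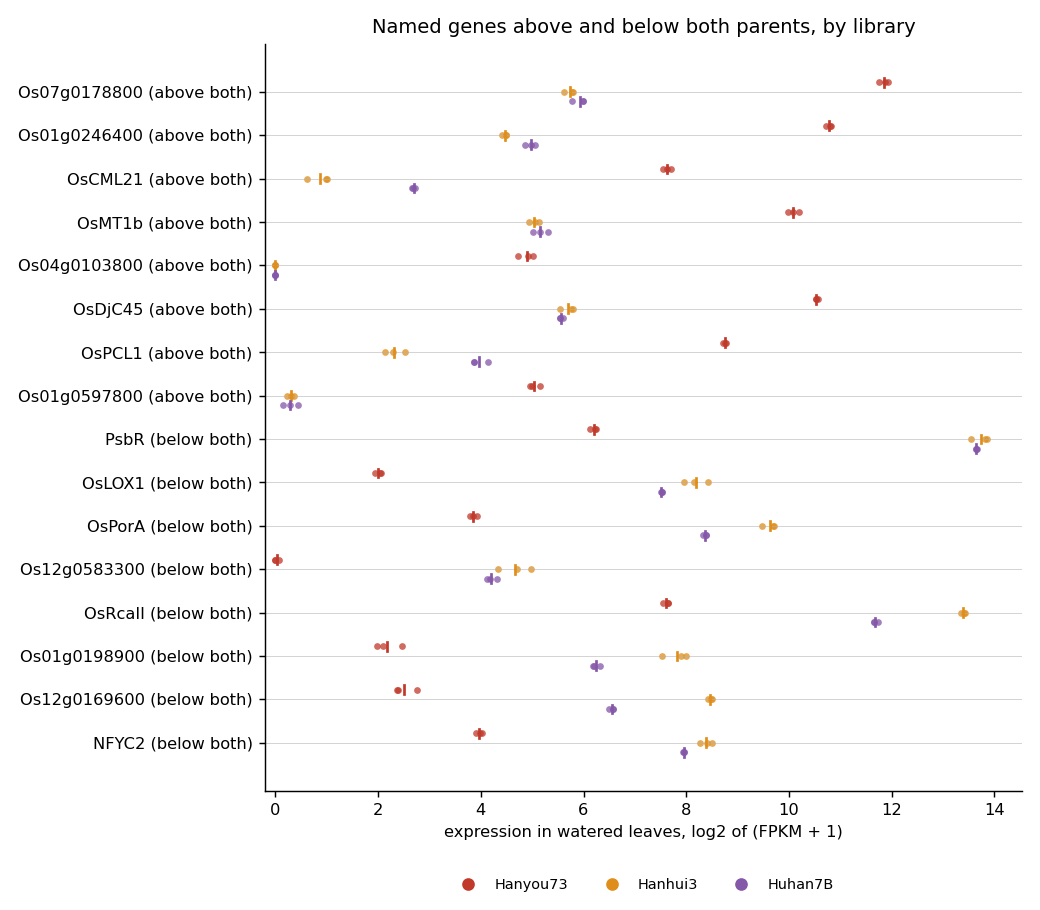
Level in watered leaves, log2 of (FPKM + 1), of the 8 genes with a symbol or product name farthest above and the 8 farthest below both parents; points are single libraries and short bars are group means of 3. The points of Hanyou73 stand apart from those of both parents in every gene shown, and the parental points lie near each other in most of them.

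Most listed genes of the light reactions lay below both parents. Of 48 tested genes of the photosystems, light harvesting and photosynthetic electron transport, 33 were below the mid-parent and 9 above it, with a median log2 difference of -1.62 (-1.74 after median-ratio scaling) against 0.14 over all genes. Below both parents lay 30 of them, and above both 5, beside 12.5% below both and 26.4% above both over all genes. The deposited pathway annotation for photosynthesis, with 68 tested genes, had 24 below both and 7 above both. Its median was -0.305 (-0.38 after scaling), a smaller deficit than in the list. The summed level of the list was 30400, 29210 and 30970 FPKM in the 3 Hanyou73 libraries, against 140000, 143200 and 140400 in Hanhui3 and 102800, 102500 and 105300 in Huhan7B. The largest deficits after PsbR were in 2 subunits of photosystem I. PsaK (Os07g0148900) averaged 131 ± 6.76 FPKM in Hanyou73, against 2989 ± 147 in Hanhui3 and 2048 ± 55.0 in Huhan7B, and PsaN (Os12g0189400) averaged 11.1 ± 2.28, against 211 ± 24.4 and 184 ± 9.67 (SD, n = 3 each).

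The 5 members above both parents, 3 of them after median-ratio scaling, were PSBS1, PSBS2, a root-type ferredoxin-NADP reductase, a photosystem I assembly factor and a chlorophyll a-b binding protein. PSBS2 (Os04g0690800) and PSBS1 (Os01g0869800) encode the photosystem II protein that triggers the dissipation of excess light energy as heat. PSBS2 stood at 141, 132 and 137 FPKM in Hanyou73, against 56.2, 53.1 and 57.6 in Hanhui3 and 16.8, 19.6 and 16.1 in Huhan7B. PSBS1 stood at 1152, 1120 and 1149 FPKM in Hanyou73, against 983, 914 and 812 in Hanhui3 and 428, 421 and 411 in Huhan7B. Both groups of hybrid libraries lay above all parental ones, though PSBS1 was called like Hanhui3 after median-ratio scaling.

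Most listed Calvin cycle genes, which fix carbon dioxide into sugar phosphates, followed the light reactions. A few plastid isoforms were moved between this list and the glycolysis list after values were seen, so the counts depend partly on that choice. Of 28 tested, 20 were below the mid-parent and 3 above it, 18 lay below both parents and 2 above both, and the median log2 difference was -0.97 (-1.11 after scaling). Their sum was 7221, 7121 and 7325 FPKM in Hanyou73, against 42220, 41510 and 41540 in Hanhui3 and 17710, 17620 and 17340 in Huhan7B. The hybrid's sum was under both parents', and Hanhui3's was the highest of the 3 genotypes in every library. The aldolase gene Aldo (Os11g0171300) averaged 293 ± 6.90 FPKM in Hanyou73, against 5991 ± 537 in Hanhui3 and 1937 ± 42.3 in Huhan7B (SD, n = 3 each). Another 2 chloroplast enzymes were above both parents at low levels, the aldolase Os01g0118000 by 2.46-fold and the transketolase Os04g0266900 by 3.53-fold in mean FPKM over the nearer parent. Several of the Rubisco small-subunit genes in this list are near-identical copies, and how reads were shared among them is not known. The deposited pathway annotation for carbon fixation by the Calvin cycle is wider and did not show the same deficit. Of its 89 tested genes, 25 lay below both parents and 23 above both, with a median of 0.04 (-0.10 after scaling).

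Starch synthesis genes, which store the products of photosynthesis, had 12 of 22 below the mid-parent and 6 above it, with 9 below both and 6 above both. The granule-bound starch synthase GBSSII (Os07g0412100) stood at 24.0, 23.6 and 25.8 FPKM in Hanyou73, against 141, 136 and 145 in Hanhui3 and 56.7, 59.4 and 58.9 in Huhan7B, while the debranching enzyme gene OsPHS8 (Os08g0520900) was at 14.3, 13.0 and 14.6 FPKM in Hanyou73 and under 2 FPKM in all 6 parental libraries. In nitrogen assimilation, 12 of 28 genes were above the mid-parent (42.9%) and 6 below (21.4%), close to the 43.7% and 23.5% of all genes, and single members lay far off in both directions. Chloroplast glutamine synthetase OsGLN2 (Os04g0659100), which reassimilates ammonium, averaged 227 ± 2.57 FPKM in Hanyou73, against 1266 ± 33.0 in Hanhui3 and 649 ± 7.84 in Huhan7B. A glutamate synthase gene, OsGLT2 (Os05g0555600), averaged 32.4 ± 1.67, against 350 ± 5.14 and 280 ± 2.57 (SD, n = 3 each). The ammonium transporter AMT3 (Os03g0838400) went the other way, at 331, 324 and 318 FPKM in Hanyou73, against 3.15, 2.27 and 2.67 in Hanhui3 and 103, 107 and 116 in Huhan7B.

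Several other lists lay above both parents more often than the 26.4% of all genes. Lignin and phenylpropanoid genes, which make cell-wall phenolics from phenylalanine, had 37 of 55 above the mid-parent and 8 below, 32 above both, and a median of 0.75 (0.62 after scaling). The wider pathway annotation for phenylpropanoid biosynthesis showed a smaller shift. Of its 106 tested genes, 37 lay above both (34.9%) and 11 below both, with a median of 0.38 (0.32 after scaling). GH2 (Os02g0187800), a cinnamyl alcohol dehydrogenase of lignin synthesis, stood at 253, 230 and 241 FPKM in Hanyou73, against 4.42, 4.39 and 5.16 in Hanhui3 and 123, 119 and 125 in Huhan7B. OsCAD3 (Os10g0430200), of the same enzyme family, averaged 504 ± 5.67 FPKM in Hanyou73, against 91.5 ± 5.14 in Hanhui3 and 82.0 ± 4.01 in Huhan7B (SD, n = 3 each). Markers of stem and vascular tissue, where lignin is laid down, summed to 58.1, 61.2 and 57.4 FPKM in Hanyou73, against 13.2, 13.6 and 12.5 in Hanhui3 and 48.6, 45.7 and 50.2 in Huhan7B, with 3 of 17 above the mid-parent and 4 below. Their part in the lignin values was not tested.

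Antioxidant enzymes, which remove active oxygen species, had 15 of 25 above the mid-parent and 7 below, with 10 above both parents. Cytosolic ascorbate peroxidase APX2 (Os07g0694700) stood at 2286, 2244 and 2301 FPKM in Hanyou73, against 670.2, 664 and 674 in Hanhui3 and 794, 790 and 830 in Huhan7B. OsMDAR4 (Os08g0557600), a monodehydroascorbate reductase that regenerates ascorbate, stood at 277, 272 and 274 FPKM in Hanyou73, against 15.5, 12.8 and 15.7 in Hanhui3 and 48.8, 46.0 and 41.0 in Huhan7B. Both were far above every parental library. The chloroplast form APX8 (Os02g0553200) was below both parents, at 108, 116 and 108 FPKM in Hanyou73, against 416, 408 and 403 in Hanhui3 and 255, 252 and 243 in Huhan7B.

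Among heat shock proteins, chaperones that protect proteins from unfolding, 33 of 51 were above the mid-parent, 6 below and 25 above both, with a median of 0.44 (0.30 after scaling). OsHsp71.1 (Os03g0276500), of the 70 kDa class, stood at 340, 331 and 310 FPKM in Hanyou73, against 52.6, 41.6 and 39.3 in Hanhui3 and 43.2, 45.2 and 43.6 in Huhan7B, whereas the small heat shock gene HSP18.8 (Os07g0517100) averaged 7.47 ± 1.33 FPKM in Hanyou73, against 108 ± 6.17 in Hanhui3 and 48.9 ± 4.14 in Huhan7B (SD, n = 3 each). Late embryogenesis abundant proteins and dehydrins, which accumulate in drying tissue, had 9 of 15 above the mid-parent, all 9 of them above both parents, and 1 below. Yet their summed level was lower in the hybrid, 1869 to 2002 FPKM, against 2151 to 2375 in Hanhui3 and 2337 to 2456 in Huhan7B. The abundant dehydrin OsLEA24 (Os03g0655400) was the member below both, at 979, 913 and 871 FPKM in Hanyou73, against 1904, 1993 and 2115 in Hanhui3 and 1812, 1848 and 1955 in Huhan7B.

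Pentatricopeptide repeat proteins, which bind and process the RNAs of chloroplasts and mitochondria, formed the largest of the lists with high levels. Of 268 tested, 184 were above the mid-parent and 19 below, 129 lay above both parents and 8 below both, and the median log2 difference was 0.43 (0.31 after scaling). The 2 members with the largest differences, Os12g0102600 and Os11g0103000, averaged 81.7 ± 2.63 and 120 ± 4.39 FPKM in Hanyou73, against 12.6 ± 3.08 and 21.3 ± 1.98 in Hanhui3 and 10.3 ± 0.647 and 17.5 ± 1.66 in Huhan7B (SD, n = 3 each). Listed genes of respiratory carbon metabolism were above the mid-parent more often than the 43.7% of all genes. Of 26 genes of the TCA cycle, 20 were above the mid-parent and 2 below, with 8 above both parents and 9 like Huhan7B. Aconitase OsACO1 (Os08g0191100), which converts citrate to isocitrate, stood at 185, 195 and 183 FPKM in Hanyou73, against 49.99, 48.2 and 50.6 in Hanhui3 and 104, 104 and 96.8 in Huhan7B. Of 35 listed glycolysis genes, 21 were above the mid-parent and 6 below, and 16 lay above both. These counts, too, depend partly on the plastid isoforms moved between this list and the Calvin cycle list after values were seen. The wider pathway annotation for glycolysis and gluconeogenesis, with 143 tested genes, had 45 above both and 18 below both. Its median was 0.14 (-0.0008 after scaling), against 0.14 (0.02) over all genes. The pathway annotation for the TCA cycle, with 56 tested genes, had 21 above both and 2 below both, with a median of 0.33 (0.21). Enolase OsEno2 (Os03g0248600) was at 238, 247 and 254 FPKM in Hanyou73, against 73.4, 76.6 and 79.95 in Hanhui3 and 97.3, 91.4 and 92.8 in Huhan7B.

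**Figure D4:**
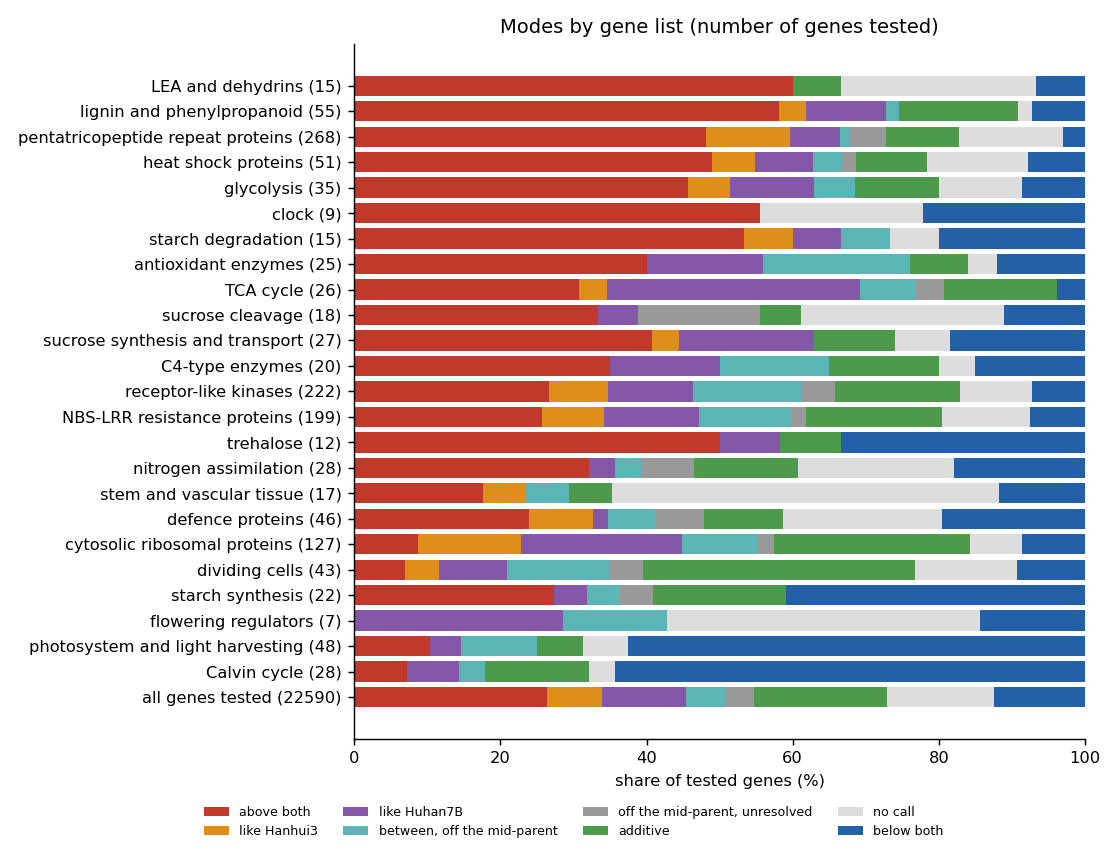
Share of tested genes in each class for the gene lists with at least 7 tested members, ordered by the share above both parents minus the share below both, with all 22590 genes in the bottom bar. Photosystem and Calvin cycle genes carry the widest blue segments, 30 of 48 and 18 of 28 genes below both parents. A few plastid isoforms were moved between the Calvin cycle and glycolysis lists after values were seen.

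The remaining lists are set beside the 43.7% above and 23.5% below the mid-parent of all genes. NBS-LRR resistance proteins, the intracellular immune receptors, had 95 of 199 above the mid-parent and 43 below, and receptor-like kinases had 119 of 222 above and 43 below. Defence proteins had 14 of 46 above and 17 below, sucrose synthesis and transport genes 13 of 27 above and 9 below, sucrose cleavage 8 of 18 and 4, and trehalose genes 6 of 12 and 5. C4-type enzymes had a higher share above, 12 of 20 (60%) with 4 below and 7 above both parents, and so did starch degradation, with 9 of 15 above (60%), 5 below (33.3%) and 8 above both. Single members still stood far apart. The sugar transporter OsSWEET4 (Os02g0301100) was at 104, 111 and 98.5 FPKM in Hanyou73, against 20.2, 16.2 and 18.3 in Hanhui3 and 12.2, 12.7 and 12.2 in Huhan7B. The trypsin inhibitor RBBI2-2 (Os01g0123900) was at 1.90, 2.63 and 2.32 FPKM in Hanyou73, against 305, 279 and 278 in Hanhui3 and 24.8, 24.0 and 23.7 in Huhan7B.

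With the deposited FPKM, most cytosolic ribosomal protein genes were additive or like a single parent. Of 127 tested, 44 were above the mid-parent and 40 below, which turned to 24 above and 61 below after median-ratio scaling, and the median was 0.01 or, after scaling, -0.12. Only 11 lay above both parents and 11 below both, while 34 were additive, 18 like Hanhui3 and 28 like Huhan7B. Over all genes tested these classes held, in the same order, 26.4%, 12.5%, 18.1%, 7.53% and 11.5%. After median-ratio scaling 8 of the ribosomal protein genes lay above both parents and 32 below both. Their direction relative to the mid-parent, and the number below both parents, therefore depended on scaling.

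Clock genes were displaced in both directions. CCA1 (Os08g0157600), a MYB factor of the morning loop of the plant clock, stood at 5.56, 5.39 and 4.87 FPKM in Hanyou73, against 56.6, 54.6 and 55.4 in Hanhui3 and 49.8, 45.6 and 47.3 in Huhan7B. OsPCL1, the rice relative of the Arabidopsis evening-complex factor PHYTOCLOCK 1, stood at 433, 436 and 417 FPKM in Hanyou73, against 4.78, 3.38 and 3.90 in Hanhui3 and 13.6, 16.5 and 13.7 in Huhan7B. In mean FPKM the hybrid lay 9.02-fold below the nearer parent for CCA1 and 29.4-fold above it for OsPCL1, with log2 differences from the mid-parent of -3.06 ± 0.10 and 5.61 ± 0.075 (SE; limma adjusted p = 2.8e-13 and 3.73e-18).

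Of 9 tested genes in the clock list, which does not include OsPCL1, 5 lay above both parents, 2 below both and 2 had no call. After median-ratio scaling 4 lay above both and 2 below both. Over all genes 26.4% lay above both and 12.5% below both. The wider pathway annotation for circadian rhythm, with 47 tested genes, had 20 above both and 10 below both. Os04g0583900, which the file names LHY, was at 11.9, 11.3 and 11.6 FPKM in Hanyou73 and at 0.27 FPKM or less in all 6 parental libraries. In rice that name usually goes with Os08g0157600, called CCA1 here, so no role is given to Os04g0583900. The pseudo-response regulator genes, whose products act in sequence through the day, split. OsPRR1 (Os02g0618200) averaged 165 ± 1.27 FPKM in Hanyou73, against 73.7 ± 3.94 in Hanhui3 and 111 ± 1.93 in Huhan7B, and OsPRR73 (Os03g0284100) averaged 448 ± 5.69, against 745 ± 32.0 and 667 ± 3.18 (SD, n = 3 each). These values moved in the same libraries as the light-reaction and Calvin cycle genes, many of which cycle daily in plants. The same time of day is stated for all groups, and the part of clock phase in the other values was not tested.

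**Figure D5:**
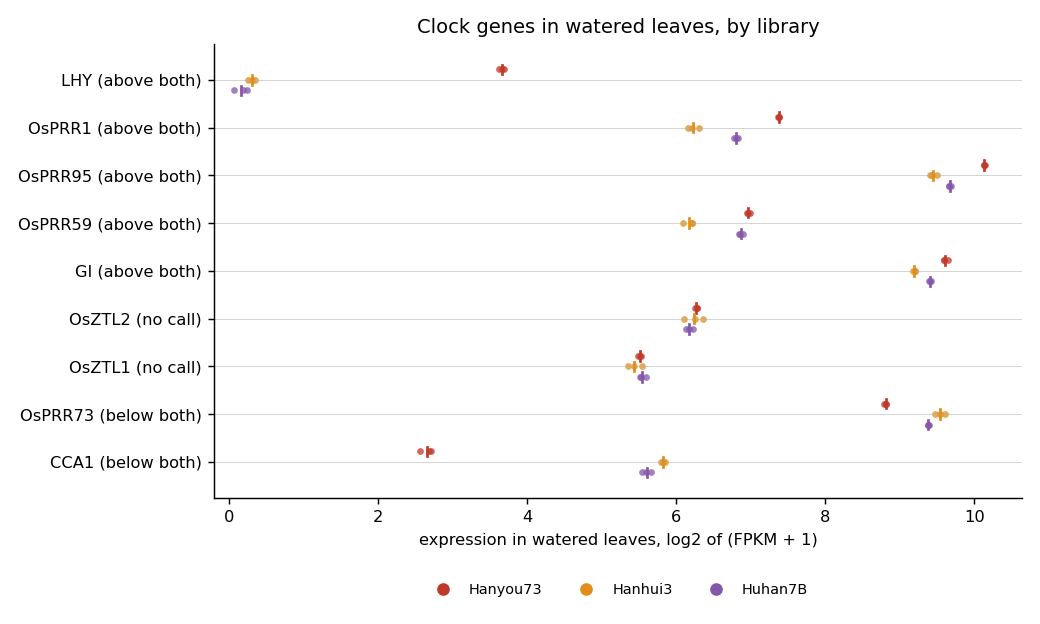
Level in watered leaves, log2 of (FPKM + 1), of the 9 tested genes in the clock list, with the class of each in brackets; points are single libraries and short bars are means of 3. Hanyou73 lies to the right of both parents for OsPRR1 and for Os04g0583900, labelled LHY as in the file. It lies to the left for CCA1 and OsPRR73, and overlaps the parents for both ZTL genes, which had no call.

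Of 7 flowering regulators tested, 2 were above the mid-parent and 2 below, and both of the higher calls were lost after median-ratio scaling. The florigen gene Hd3a (Os06g0157700), whose protein moves from leaf to shoot tip to start flowering, lay between the parents, at 20.3, 19.0 and 14.9 FPKM in Hanyou73, against 57.1, 58.2 and 57.7 in Hanhui3 and 11.3, 15.9 and 11.1 in Huhan7B.

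Markers of grain, pollen and flower were low in every watered library, while markers of dividing cells were measured throughout. RbcS3 (Os12g0291100), a Rubisco small-subunit gene of mature leaf, averaged 1989 FPKM in Hanyou73, 6713 in Hanhui3 and 4311 in Huhan7B. Of 55 listed grain storage genes only 2 were tested, with 0 called, and the list summed to 8.96 to 12.7 FPKM in Hanyou73, against 8.54 to 10.6 in Hanhui3 and 10.6 to 12.3 in Huhan7B. None of 17 pollen and flower markers was tested, and their sum was at most 0.91 FPKM in any watered library. Markers of dividing cells had 13 of 43 above the mid-parent and 8 below. Their sum was 4326 to 4600 FPKM in Hanyou73, against 2927 to 2981 in Hanhui3 and 5421 to 5562 in Huhan7B, between the parents. In bulk leaves, fewer cells of a type and less RNA per cell cannot be told apart.

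The genes named from the parent-like classes were those with the widest parental gaps. In the class like Hanhui3 the widest gaps were in genes with reads in Huhan7B and almost none in Hanyou73 and Hanhui3. OsWAK123 (Os11g0694100), a wall-associated receptor kinase, was listed at 0 in all libraries of Hanyou73 and Hanhui3 and at 374, 368 and 353 FPKM in Huhan7B. Os07g0565000, annotated as ribosomal protein S11 of the small subunit, was likewise listed at 0 in Hanyou73 and Hanhui3 and at 114, 116 and 109 FPKM in Huhan7B. Members of such families share sequence, so reads could have been counted for another copy. On the other side, OsWD40-191 (Os11g0660400) stood at 37.9, 36.3 and 36.0 FPKM in Hanyou73, against 33.2, 38.6 and 41.6 in Hanhui3 and 0.14 FPKM or less in Huhan7B. Hybrid and Hanhui3 overlapped in that gene, though after median-ratio scaling it was called between the parents.

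In the class like Huhan7B, LOGL9 (Os09g0547500), an enzyme that activates cytokinin, stood at 60.9, 62.9 and 74.4 FPKM in Hanyou73, against 0.94, 1.21 and 0.81 in Hanhui3 and 56.3, 61.5 and 61.3 in Huhan7B. OsYUCCA9 (Os01g0273800), a flavin monooxygenase of auxin synthesis, stood at 34.4, 33.7 and 36.3 FPKM in Hanyou73, against 1.32, 1.11 and 1.41 in Hanhui3 and 32.3, 33.0 and 31.8 in Huhan7B. Both hormone genes were at the Huhan7B level and far above Hanhui3. With Hanhui3 as the higher parent, the named genes were at or near 0 in the hybrid. RNS4 (Os09g0537700), a ribonuclease, was listed at 0 in all 3 Hanyou73 libraries, at 17.2, 16.6 and 18.2 FPKM in Hanhui3 and at 0.09 FPKM or less in Huhan7B. OsBURP07 (Os05g0217700), a BURP-domain protein, was listed at 0 in Hanyou73 and Huhan7B and at 11.6, 10.9 and 8.88 FPKM in Hanhui3. Within the class like Hanhui3, Huhan7B was the higher parent for 932 genes and Hanhui3 for 769. In the class like Huhan7B the counts were 1791 and 801.

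Additive genes were those with no call off the mean of the log2 levels, so a small difference from it is partly set by the class. OsBDG1 (Os11g0514400), a leucine-rich repeat protein, stood at 59.1, 54.1 and 61.3 FPKM in Hanyou73, against 7.44, 7.46 and 7.52 in Hanhui3 and 449, 437 and 442 in Huhan7B, and its difference from the mid-parent was -0.05 ± 0.092 in log2 (SE; limma adjusted p = 0.63). OsPSK4 (Os07g0124100), a precursor of the growth peptide phytosulfokine, stood at 69.8, 62.5 and 69.0 FPKM in Hanyou73, against 14.7, 19.0 and 18.9 in Hanhui3 and 202, 223 and 219 in Huhan7B. Os06g0634700, a sucrose-phosphate synthase, stood at 2.06, 2.29 and 1.58 FPKM in Hanyou73, against 8.66, 9.52 and 8.06 in Hanhui3 and 0.12 FPKM or less in Huhan7B. In all 3 genes the libraries fell into 3 separate groups with the hybrid in the middle. With the mid-parent on the FPKM scale, the hybrid's log2 difference from it was -1.94 for OsBDG1, -0.78 for OsPSK4 and -0.86 for Os06g0634700 (limma adjusted p = 1.49e-10, 6.31e-06 and 1.34e-05), and all 3 were then classed between the parents and off the mid-parent, while 89.3% of all additive genes kept their class on that scale. The other 5 genes that the rule named with Hanhui3 higher were called additive with wide errors, of 0.76 to 1.28 in log2 (SE). Os08g0409233, for example, was listed at 0 in Hanyou73 and Huhan7B and at 78.8, 0 and 78.0 FPKM in the 3 Hanhui3 libraries. When the hybrid also had to be called against each parent in opposite directions, 1505 additive genes were left.

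Among genes with parents called and at least 2-fold apart, 22.1% were additive and 23.2% lay between the parents but off the mid-parent, 16.4% were like Huhan7B, 10.4% like Hanhui3, 18.8% above both and 9.05% below both. Of the 1654 with Hanhui3 higher, 285 lay below both parents and 169 above both. Of the 2168 with Huhan7B higher, 61 lay below both and 550 above both. Median-ratio scaling turned the order of the 2 totals, to 2145 genes with Hanhui3 higher, of which 418 lay below both and 164 above both, and 1769 with Huhan7B higher, of which 61 lay below both and 405 above both. Over all 15009 genes with parents called apart, the hybrid was nearer to Huhan7B than the mid-parent in 9159 and nearer to Hanhui3 in 5850, counting genes beyond a parent on that parent's side. After median-ratio scaling the counts were 8507 and 5968 of 14475.

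Some genes were expressed in a single parent, at 5 FPKM or more in all 3 libraries of one and under 0.1 FPKM in all 3 of the other. The hybrid's median level was 46.2% of the expressing parent's for the 104 genes on in Hanhui3 alone and 38% for the 87 on in Huhan7B alone. Of the 104 genes, 2 were under 0.1 FPKM in all hybrid libraries, and of the 87, 15 were. On the log2 scale most of these genes, 79 and 48, were classed between the parents and off the mid-parent. The mean of 2 log2 values lies under the log2 of the mean level, so the scale matters here. On the FPKM scale the hybrid was called above the mid-parent for 32 of the 104 and 15 of the 87, and below it for 38 and 47. The cyclin gene Os02g0800500 illustrates the choice. It stood at 9.00, 9.23 and 9.15 FPKM in Hanyou73, against 0.03 FPKM or less in Hanhui3 and 19.5, 18.0 and 17.3 in Huhan7B, which was 1.20 ± 0.063 above the mid-parent in log2 (SE) but at the mean of the parental FPKM.

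The droughted libraries gave the same class for part of the genes. They entered the watered classes only through the filter on low values, the estimate of spread and, where used, the size factors. Of genes above both parents in water, 65.1% were also above both in drought, and they made up 43.9% of the 8853 genes (39.2% of genes tested) above both in drought. Of genes below both in water, 36.1% were below both in drought, and they made up 57.6% of the 1768 (7.83%) in that class in drought. The other classes overlapped less. The shared genes were 16.8% of the additive genes in water and 23.5% of the 2930 (13%) in drought. They were 19% of the genes like Hanhui3 in water and 14.6% of the 2211 (9.79%) in drought, and 11.5% of the genes like Huhan7B in water and 18.3% of the 1625 (7.19%) in drought. Of 11917 genes called off the mid-parent in both conditions, 9742 lay on the same side. The deviation itself differed between water and drought for 13168 genes (58.3%; limma with Benjamini-Hochberg adjustment). Of these, 580 were above the mid-parent in water and below it in drought, and 1595 were the reverse. The drought classes and these differences rest on the deposited FPKM alone, without median-ratio scaling. The size factor was 1.19 to 1.20 in droughted Hanyou73, 0.970 to 0.980 in droughted Hanhui3 and 0.935 to 0.953 in droughted Huhan7B. The median gene lay 0.305 above the mid-parent in drought, against 0.14 in water, so the drought counts carry a larger shift.

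Several genes that the rule named were among those whose deviation differed. OsHsp71.1, OsPRR95 and SUS4 are given as genes called on opposite sides of the mid-parent in the 2 conditions. OsHsp71.1 lay 2.86 above the mid-parent in water and -0.61 from it in drought, a difference of 3.47 in log2 (limma adjusted p = 8.9e-13). OsPRR95 (Os09g0532400), another pseudo-response regulator, was above both parents in water and below both in drought, with a difference of 1.19 (adjusted p = 2.85e-13), and the sucrose synthase SUS4 (Os03g0340500) was below both in water and above both in drought, with a difference of -1.48 (adjusted p = 6.03e-13). The deficit of OsRcaII was close in both conditions, at -4.92 in water and -5.04 in drought. The light-reaction list stayed low in drought, with a median of -1.19, and the Calvin cycle list had a median of -0.38, against 0.305 over all genes in drought.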

How the data were processed

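Polyadenylated RNA of flag leaves was sequenced from strand-specific libraries, per the labels' protocols. Per the submitters' processing notes, the tools were DESeq2, RSEM, StringTie, HISAT2 and fastp and the build was IRGSP-1.0; versions are not given in the sources used here. The authors deposited an FPKM value per gene and library. The header and labels do not name that unit; it was inferred from the values, which have decimals and unequal library sums. The total fragment number was not used, so no counting intervals are given.

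Groups came from the sample labels. Genes with at least 1 FPKM in at least 3 of the 18 libraries were kept and 1017 structural RNA genes were left out. Symbols were found for 7082 and product names for 12077 of the 22590 genes tested, in the deposited file and a RefSeq table. Coordinates are left out because that table is of another assembly. The log2(FPKM + 1) values of all 18 libraries were fitted as 6 group means with limma-trend (limma 3.58.1, R 4.3.3), and contrasts passed at a Benjamini-Hochberg adjusted p of 0.05. The design allowed for counts or FPKM, and the FPKM form was used. The scripts were tested on simulated data. Level errors are SD over 3 libraries and log2 errors are moderated SE. Log2 differences from a group near 0 depend on the pseudocount of 1 and understate changes of low genes. The mid-parent is the mean of the parents' log2 values. On the FPKM scale it is the log2 of the mean of the parents' back-transformed log2 means. Calls on that scale used a t-test with limma's moderated variance and a delta-method SE. Folds are ratios of mean FPKM against the nearer parent.

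Named genes were the 8 farthest from the nearer parent above and below both, the 6 with the widest parental gap per direction in the additive and parent-like classes, each with a mean of at least 5 FPKM in a watered group, and up to 3 per direction and list. Members and lists were chosen with earlier results of these data known, and a few plastid isoforms were moved between the Calvin cycle and glycolysis lists after values were seen. RbcS3 and the lists given whole stand outside the rule. No list was tested for enrichment.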

Additional observations from a re-analysis of the deposited data

Results flagged for a closer look

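The hybrid's difference from the mid-parent was compared between water and drought, and it differed for 135 of the 183 genes the rule named (limma, Benjamini-Hochberg adjustment over all genes), beside 58.3% of all genes tested. The rule chose most of them for their distance from the mid-parent or a parent in water, which favours such a difference, so nothing is read from that count. Given here are those farthest above or below both parents and the 9 that were called on opposite sides of the mid-parent in the 2 conditions. The values are the log2 difference in water minus that in drought, on the deposited FPKM. Among genes above both parents in water, the value was 1.77 for the early light-inducible gene Os07g0178800, 2.03 for its relative Os01g0246400, 5.25 for OsCML21 (Os05g0312600), 1.79 for OsMT1b (Os03g0288000), 1.10 for Os04g0103800, 1.54 for OsDjC45 (Os04g0675400), 0.83 for OsPCL1 (Os01g0971800) and 3.22 for Os01g0597800. OsCML21 averaged 1.85 FPKM in droughted Hanyou73, 0.04 in droughted Hanhui3 and 2.52 in droughted Huhan7B, and was like Huhan7B there, whereas the other 7 stayed above both parents in drought.

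Among genes below both parents in water, the value was -2.46 for PsbR (Os07g0147500), -3.98 for OsLOX1 (Os02g0194700), -0.70 for OsPorA (Os04g0678700), -3.27 for Os12g0583300, -1.11 for Os01g0198900, -1.66 for the aldolase Os12g0169600 and -2.08 for NFYC2 (Os03g0251350), all of them also below both parents in drought. PsbR averaged 276 FPKM in droughted Hanyou73, 12400 in droughted Hanhui3 and 6612 in droughted Huhan7B. OCPI2 (Os01g0615100), a subtilisin-chymotrypsin inhibitor, had a value of -4.58. It was like Hanhui3 in water, at 0 to 1.96 FPKM in Hanyou73, 0 to 1.08 in Hanhui3 and 79.0 to 95.8 in Huhan7B, and like Huhan7B in drought, where it averaged 52.3, 2.60 and 54.1 FPKM in Hanyou73, Hanhui3 and Huhan7B.

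The other genes called on opposite sides came from the lists. OsHsp71.1 (Os03g0276500) and OsPRR95 (Os09g0532400), with values of 3.47 and 1.19, were above both parents in water and below both in drought. The sucrose synthase SUS4 (Os03g0340500), with -1.48, and the thaumatin-like defence gene Os12g0629600, with -2.94, were below both in water and above both in drought. Another 3 genes were below both in water and like Hanhui3 in drought, with values of -1.27 for OsPP124 (Os12g0112500) and -0.87 for OsPP117 (Os11g0113100), both annotated as a phosphoglucan phosphatase of starch breakdown, and -1.65 for the D-type cyclin CycD2 (Os06g0217900). The laccase OsLAC23 (Os11g0641500), with -1.86, lay between the parents in water and above both in drought, and its side of the mid-parent in water depended on the pseudocount.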

How the results depend on the processing

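The counts of genes above and below the mid-parent and in the classes above both, below both, additive and like either parent were recomputed with a pseudocount of 0.1, without the filter on low values, with at least 5 FPKM, with the watered libraries alone, with median-ratio scaling, with the mid-parent on the FPKM scale, and without each watered library in turn. They stayed within 1.5 times the reported counts in each case. The stricter definitions moved them: 1505 additive genes in place of 4096, and 2705 genes above and 1124 below the mid-parent by at least 2-fold. Leaving out a library gave 9331 to 9883 genes above the mid-parent, 4893 to 5456 below, 5631 to 5953 above both, 2613 to 2921 below both and 3757 to 4652 additive. Median-ratio scaling with the mid-parent on the FPKM scale, chosen after seeing the data, gave 3995 additive genes.

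Of the named genes, OsLAC23 (Os11g0641500) turned to 0.57 with a pseudocount of 0.1 from -0.51, and Os02g0800500 to -0.0021 with the mid-parent on the FPKM scale. Os04g0658300, EHD4 and HD16 lost their call with median-ratio scaling. Of 151 named genes called off the mid-parent, 3 lost the call with the watered libraries alone and 5 when some single library was left out: OsNIN7 (Os04g0432400), Os03g0667800, Os03g0337850, Os03g0452801 and Os01g0131900. At most 4 lost it in any one of these settings.

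Same-numbered watered libraries deviated together by r of only -0.0333 to 0.091, so no strong shared effect of the number was seen. Such values cannot show whether the pools were paired when they were taken. A replicate block gave 15101 calls in place of 15190, of which 14953 were shared, with 9825 genes above and 5276 below the mid-parent.

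The number of 3 pools per group limits the precision, and levels under 1 FPKM rest on few reads.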

Other observations

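Pathways as annotated in the deposited file gave a wider view of the classes, as shares of tested genes beside 26.4% above both and 12.5% below both over all genes. The highest shares above both parents were in phenylalanine metabolism, with 20 of 36 genes above both and 2 below both, propanoate metabolism with 17 of 31 and 2, and nicotinate and nicotinamide metabolism with 13 of 24 and 4. Glutathione metabolism, which serves detoxification and redox balance, had 58 of 111 above both and 10 below both, and the proteasome, the protein-degrading complex, 35 of 68 and 2. The highest shares below both were in photosynthesis, with 24 of 68 below both and 7 above both, terpenoid backbone synthesis, which feeds carotenoid and chlorophyll side-chain synthesis, with 19 of 58 and 15, and other glycan degradation with 7 of 24 and 7. No pathway was tested for enrichment, and pathways share genes.

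Ribosome genes of the pathway annotation had 35 of 354 above both parents and 33 below both in water. In drought 222 of them lay above both and 3 below both, beside 39.2% and 7.83% of all genes tested in drought. After median-ratio scaling the watered counts were 21 and 77, while the drought counts are given on the deposited FPKM only.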
